A study of Mus musculus with 12 samples.

Results

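Adar-null B16 cells were compared with control B16 cells in the absence of interferon, in 6 of the 12 libraries of the study: 3 from each population, all kept for 36 h in vehicle (phosphate-buffered saline with 0.1% bovine serum albumin). B16 is an established mouse melanoma cell line. Both populations carry the history of a short transfection with plasmids for Cas9 and a guide RNA, followed by subcloning. The Adar-null cells received Adar sgRNA 1 and the control cells Non-targeting sgRNA 5. The other 6 libraries come from the same populations after 36 h with interferon-beta (IFNb) at 1000 U per mL. They entered the joint fit, and so its gene filter, scaling and estimate of the spread, and below they show the populations again. Each genotype is represented by 1 guide and its subcloned cells, so an effect of the genotype and a difference between subclones cannot be told apart. Whether the 3 libraries of a group stem from separate cultures is not said in the labels, and p-values then measure a spread that may be only technical.

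ADAR1, the product of Adar, binds double-stranded RNA and deaminates adenosine to inosine, mostly within inverted repeats of transcripts. Unedited double-stranded RNA can be recognised by cytoplasmic sensors such as MDA5 and PKR, which is why loss of the enzyme is studied together with interferon, the signal that raises those sensors. B16 cells belong to the melanocyte lineage, whose pigment enzymes work in the melanosome, an organelle related to the lysosome.

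The vehicle libraries held 5405621 to 7153480 counts, of which 21.1% to 22.9% were assigned to Rn45s, the ribosomal RNA precursor. On the first principal component of the 6 libraries, with 37.0% of the variance, the control libraries lay between 9.87 and 16.2 and the Adar-null libraries between -15.4 and -9.78. The second component, with 17.2%, spread the control libraries from -16.8 to 13.5, while the Adar-null libraries lay between -0.763 and 2.21. Each pair of libraries differed by more than sampling noise, with a chi-square per degree of freedom of 1.48 to 2.30 within a population and 2.38 to 3.92 between them. The targeted gene, Adar (chr3:89714469-89753455, plus strand, GRCm38), stood at 74.3, 70.3 and 71.9 CPM (counts relative to the library size scaled by TMM) in the control libraries and at 65.6, 56.3 and 56.7 CPM in the Adar-null libraries. It was lower in Adar-null cells by a log2 fold change of -0.28 ± 0.06 (standard error; edgeR adjusted p = 0.0017), and the groups did not overlap. A small deletion need not lower the count over a whole gene, so these counts do not check the deletion.

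Of 11561 genes tested, 753 were called at an adjusted p under 0.05, which is 6.51% of them. Lower in Adar-null cells were 468 (4.05%) and higher 285 (2.47%), and the median log2 fold change over all tested genes was -0.00201. Most called differences were small. A change under 1.25-fold accounted for 465 calls, of which 206 were rises and 259 falls, and 165 calls lay between 1.25-fold and 1.5-fold. Another 71 lay between 1.5-fold and 2-fold, and 52 reached 2-fold or more. Of those 52 genes 41 were lower and 11 higher. The share of genes called rose with the level, from 2.67% of genes under 2 CPM to 14.8% of those at 200 CPM or more, as the median standard error of the log2 fold change fell from 0.478 to 0.0455. Among the called genes 740 were protein-coding, 5 were lncRNAs and 2 were snoRNAs. The 6 libraries did not overlap between populations for 22.3% of all tested genes and for 695 of the 753 called ones. Groups that do not overlap, as given below for single genes, were thus the rule among called genes and add little to a call. The whole count was 308 without control replicate 2, 393 and 463 without Adar-null replicates 1 and 2, 324 with the DESeq2 Wald test and 17 in a test against a 1.5-fold change.

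**Figure D1:**
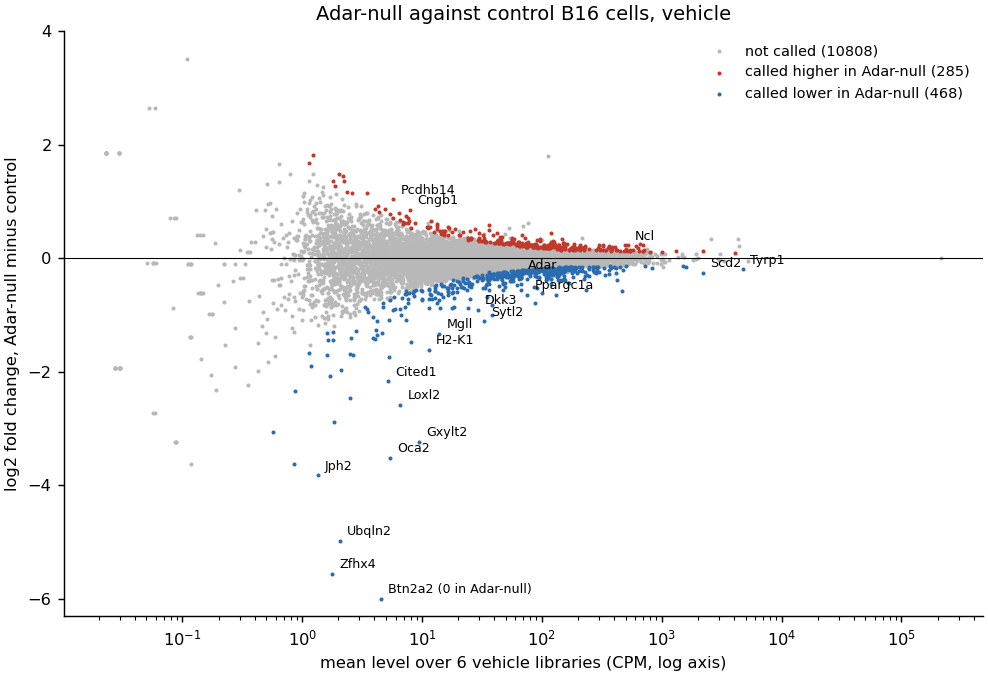
Fitted log2 fold change (Adar-null minus control, vehicle) against the mean level over the 6 libraries in CPM on a log axis, 1 point per tested gene, with calls in blue (468 lower) and red (285 higher). The points far from 0 lie below the line, and Btn2a2, with no count in the Adar-null libraries, is drawn at the lower edge.

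A few genes were close to absent from one population. Btn2a2, which encodes a butyrophilin of antigen-presenting cells (chr13:23477049-23488858, minus strand), had 42, 71 and 45 counts in the control libraries and 0 in each Adar-null library. It was at least 56.9-fold lower in Adar-null cells, taking 3 counts over the group as the floor (edgeR adjusted p = 2.07e-19). Zfhx4, a large zinc finger homeobox gene (chr3:5218218-5415861), stood at 2.99, 3.46 and 3.97 CPM in control cells and at 0, 0 and 0.178 CPM in Adar-null cells, a ratio of 64.9 with a 95% counting interval of 11.2 to 2600. The whole Adar-null group held 1 count of it against 60 in the control group.

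Ubqln2, the X-linked gene of a ubiquilin that brings ubiquitinated proteins to the proteasome, had 69 counts in the control group and 2 in the Adar-null group, a ratio of 37.3 (interval 9.94 to 314). Its levels were 2.46, 4.45 and 5.06 CPM in control and 0.171, 0.138 and 0 CPM in Adar-null libraries. Jph2, a junctophilin that ties the plasma membrane to the endoplasmic reticulum, had 44 and 3 counts, a ratio of 15.9 (interval 5.08 to 79.8). In bulk RNA a loss in part of the cells and a lower level in every cell cannot be told apart. The populations did not overlap in any of these genes, but the largest falls were chosen on that condition. The intervals cover counting error only. Ubqln2 (edgeR adjusted p = 1.28e-10) and Jph2 (adjusted p = 3.29e-06) were called, as was Zfhx4 (adjusted p = 3.85e-10).

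A search for genes with at least 10 counts in one population and none in the other gave 6 genes, each of them seen in control cells only. Besides Btn2a2 they were Smoc1, a matricellular calcium-binding protein gene (19 counts, at least 6.85-fold), Ulbp1, a ligand of the NKG2D receptor (16, at least 5.76-fold), Vldlr, a lipoprotein receptor (15, at least 5.4-fold), Cyba, a subunit of the NADPH oxidase (13, at least 4.68-fold), and E430016F16Rik (12, at least 4.32-fold). Apart from Btn2a2 these were below the level at which genes were tested. The one-sidedness belonged to that minimum: with at least 5 counts there were 32 control-only and 31 Adar-null-only genes, and with at least 20 only Btn2a2 was left.

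Larger numbers of counts stood behind the next falls. Oca2, which encodes a melanosomal membrane protein needed for pigment (chr7:56239593-56536518), stood at 9.31, 10.6 and 10.1 CPM in control and 1.03, 0.828 and 0.713 CPM in Adar-null libraries. Gxylt2, a xylosyltransferase that extends O-glucose on Notch-type EGF repeats (chr6:100704672-100810888), stood at 16.3, 20.4 and 14.6 CPM against 1.71, 2.21 and 1.43 CPM. Loxl2, a lysyl oxidase that cross-links collagen and elastin (chr14:69608692-69695834), stood at 11.9, 9.9 and 12.1 CPM against 1.54, 2.21 and 1.78 CPM. In each of these genes the lowest control library lay several times above the highest Adar-null library, and the standard errors of the log2 fold changes were 0.39 for a value of -3.52, 0.27 for a value of -3.23 and 0.29 for a value of -2.58.

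Cited1, a co-activator without DNA-binding domain that melanocytes express, stood at 8.26, 8.08 and 9.21 CPM in control and 1.54, 1.52 and 2.67 CPM in Adar-null libraries. Ccdc80, a secreted matrix-associated protein gene, fell from 4.57, 2.97 and 2.35 CPM to 0.514, 0.69 and 0 CPM (log2 fold change -2.89 ± 0.60). Pcdhgb1, a clustered protocadherin gene whose relatives are alike in sequence, fell from 5.1, 3.13 and 4.51 CPM to 1.2, 0.414 and 0.713 CPM (-2.46 ± 0.46). These groups did not overlap, which was a condition for a place among the 12 largest falls. Anpep, the membrane aminopeptidase CD13, fell by 2.08 ± 0.50 on the log2 scale. Notch3, a Notch receptor, fell by 1.97 ± 0.46, with control libraries at 1.58, 4.29 and 4.33 CPM and Adar-null libraries at 1.03, 1.24 and 0.178 CPM. The 12 largest falls kept their call under every one of 16 alternative settings that gave them a value (15 for Jph2, which had no DESeq2 adjusted p, and 15 for Notch3, which was not tested when the vehicle libraries were fitted alone), and 10 of them were also called against a 1.5-fold change.

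The called rises were smaller. Pcdhb14, a clustered protocadherin gene, stood at 3.51, 4.29 and 3.43 CPM in control and 8.74, 8.15 and 6.24 CPM in Adar-null libraries (log2 fold change 1.04 ± 0.24, edgeR adjusted p = 9.21e-04). Cngb1, a subunit of cyclic nucleotide-gated channels, stood at 5.45, 5.61 and 5.6 CPM against 10.1, 8.7 and 11.8 CPM. Both rose, and of the 12 largest rises these 2 kept their call in every one of the 16 alternatives. Groups that do not overlap were a condition for a place among the 12. The other 10 lost it in at least 1, and none of the 12 was called against a 1.5-fold change.

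Among those 10 were Hoxb6 at 3.51, 1.81 and 3.25 CPM in control and 6.85, 3.87 and 5.17 CPM in Adar-null cells (0.87 ± 0.28), and Hoxa2 (1.27 ± 0.43), homeobox genes of axial patterning. Hoxb6 lost its call in 4 of the alternatives and Hoxa2 in 6. Fam160a1 (1.48 ± 0.45, lost in 4), B230319C09Rik (1.46 ± 0.41, lost in 3) and Spnb3, a spectrin gene (1.37 ± 0.42, lost in 4), had higher fitted values at 0.495 to 4.64 CPM. Of the 39 tested homeobox and developmental regulators 2 were called, both higher, a share of 5.13% beside 6.51% of all genes.

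**Figure D2:**
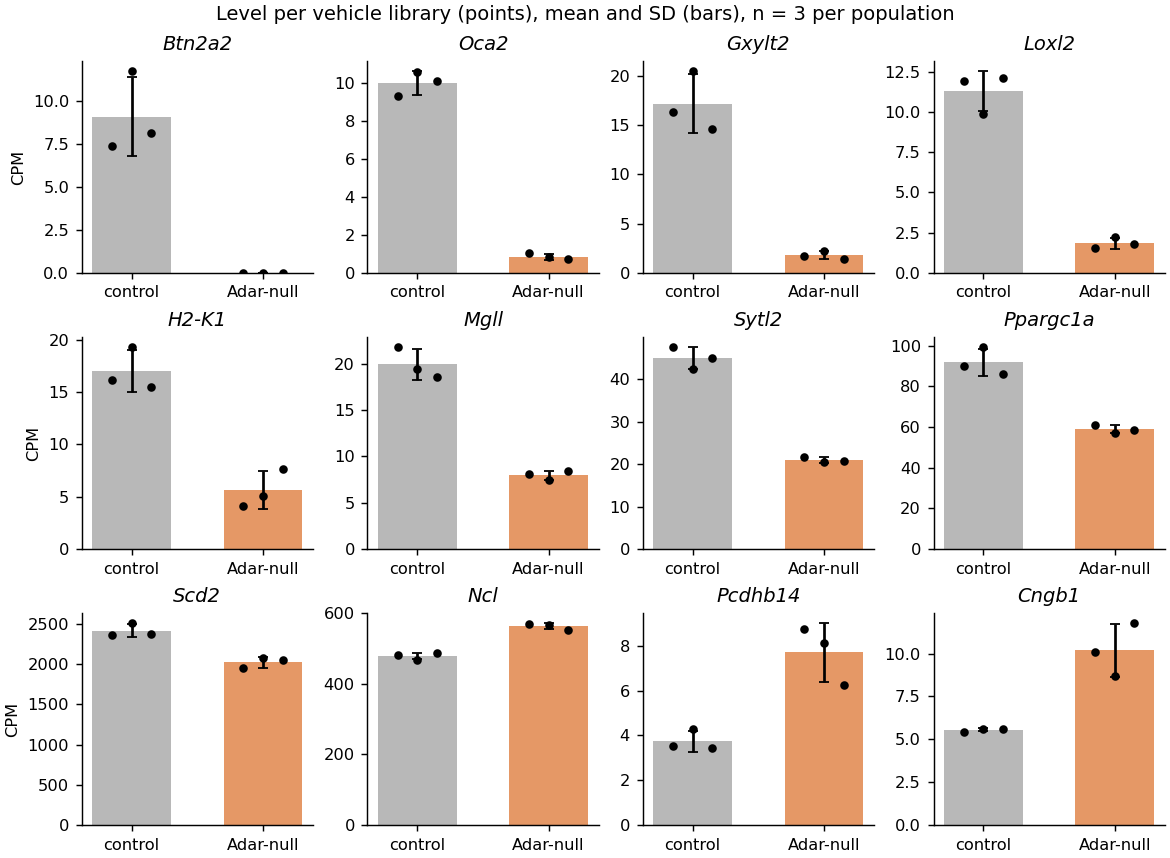
Levels in CPM of 12 genes in the 6 vehicle libraries (points), with the mean (bar) and standard deviation (error bar) of 3 control and 3 Adar-null libraries. Points of the populations do not overlap in any panel, and the fall in Oca2, Gxylt2 and Loxl2 is far larger than the rise in Ncl, Pcdhb14 or Cngb1.

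Melanocyte markers were expressed in both populations. All 10 marker genes fixed for the lineage were counted in every library, and 8 of them (Mitf, Sox10, Tyr, Dct, Pmel, Gpnmb, Slc45a2 and Rab38) were not called. Dct, dopachrome tautomerase, stood at 5417, 5392 and 5230 CPM in control and 5198, 5158 and 5247 CPM in Adar-null libraries (-0.04 ± 0.03). Tyrp1, the tyrosinase-related protein of eumelanin synthesis, fell from 5116, 5316 and 4884 CPM to 4427, 4425 and 4516 CPM (-0.20 ± 0.03, edgeR adjusted p = 4.42e-07). Mlana, a melanosomal protein, rose from 389, 371 and 386 CPM to 436, 442 and 431 CPM (0.19 ± 0.04). In both the groups did not overlap, though the difference was under 1.25-fold.

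Of 23 tested genes of the melanocyte list 4 fell and 1 rose (21.7%, beside 6.51% of all genes called). The median was -0.0356 (-0.00982 without Adar-null replicate 2). Besides Oca2, Cited1 and Tyrp1 the falls held Slc24a4, a cation exchanger tied to pigmentation, at 7.38, 7.92 and 9.39 CPM in control and 2.06, 2.76 and 2.5 CPM in Adar-null libraries (-1.73 ± 0.27). In the list of melanosome trafficking genes 3 of 31 fell, Oca2 among them (9.68%, beside 4.05% of all genes called lower). Sytl2, a Rab27 effector that moves melanosomes to the membrane, fell from 47.6, 42.5 and 45 CPM to 21.8, 20.4 and 20.7 CPM (-1.10 ± 0.10, edgeR adjusted p = 1.30e-16). Sytl2 thus lay far apart in the populations with little spread within either. The third, the copper transporter Atp7a (-0.18 ± 0.06), lost its call in 8 alternatives and its groups overlapped.

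Markers of other cell types were nearly missing. Ptprc, Cd3e and Itgam of leukocytes, Cdh5 of endothelium and Epcam, Krt8 and Krt18 of epithelium had 0 counts in all 6 libraries. The summed raw counts of the 16 leukocyte markers listed ran from 16 to 19 per library in both populations, and those of the 16 fibroblast, endothelial and epithelial markers from 33 to 44 in control and 25 to 31 in Adar-null libraries, with Pdgfra at 8 to 17 counts.

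Of 20 tested integrin and focal adhesion genes 7 fell and none rose (35.0%, beside 4.05% of all genes called lower), with a median of -0.108. Itgav, the alpha-v integrin that binds vitronectin and fibronectin, fell from 150.4, 161 and 150.1 CPM to 121, 111 and 122 CPM (-0.38 ± 0.05, edgeR adjusted p = 1.01e-08). Itga6, the alpha subunit of laminin receptors, fell from 116, 125 and 116 CPM to 90.8, 100 and 94.7 CPM (-0.32 ± 0.06). Both had groups that did not overlap. Itgb3, the beta-3 partner of alpha-v, fell by 0.36 ± 0.09, a call lost without Adar-null replicate 3 (adjusted p = 0.0605), without control replicate 3 (0.0799) and with DESeq2 (0.0673). Vcl, vinculin, fell by 0.33 ± 0.08, a call lost without Adar-null replicate 1 (0.0618) or control replicate 3 (0.0523). The count of integrin calls was 4 with DESeq2 and without any of Adar-null replicates 1 and 2 and control replicates 2 and 3.

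In the list of collagens, laminins and basement membrane genes 4 of 22 fell and 1 rose (22.7%, beside 6.51% of all genes called). The median was -0.0963, and -0.0637 without Adar-null replicate 1. The adjoining genes Col4a1 and Col4a2, the chains of the main type IV collagen, fell together, from 19, 16.8 and 16.3 CPM to 9.42, 11.3 and 10.5 CPM and from 18.3, 16.8 and 20.4 CPM to 9.77, 12.4 and 12.1 CPM. Their log2 fold changes were -0.73 ± 0.15 and -0.68 ± 0.14. Sparc, a collagen-binding matricellular protein, fell from 264, 282 and 288 CPM to 179, 195 and 189 CPM (-0.57 ± 0.05, edgeR adjusted p = 7.29e-18). All 3 genes had populations that did not overlap, as had 695 of the 753 called genes. Col1a2, a type I collagen chain, was at 15.5, 7.42 and 8.49 CPM in control and 14.9, 14.5 and 18.7 CPM in Adar-null libraries (0.61 ± 0.19). Its groups overlapped through control replicate 1, and its call was lost in 8 alternatives.

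Of 19 tested genes for matrix cross-linking and collagen modification 6 fell and none rose (31.6%, beside 4.05% of all genes called lower). The median was -0.0563, between -0.0296 without control replicate 1 and -0.113 without control replicate 3, and it was -0.0887 and -0.0972 without Adar-null replicates 2 and 3. Next to Loxl2 these held Plod1 (-0.26 ± 0.05) and Plod2 (-0.22 ± 0.05), the lysyl hydroxylases of collagen. Plod2 lost its call without control replicate 2 (adjusted p = 0.121). Tgm2, a transglutaminase (-0.90 ± 0.23), lost it in 3 alternatives, among them without control replicate 2 (0.106). Without that library 2 of the list were called, and 3 without Adar-null replicate 1 or with DESeq2. Of 29 matrix proteases and inhibitors 5 fell (17.2%, median -0.135), and 3 with DESeq2 or without Adar-null replicate 1 or control replicate 2. Adamts1, a versican-cleaving protease, fell from 127, 143 and 140.3 CPM to 94.7, 106 and 99.5 CPM (-0.45 ± 0.05, edgeR adjusted p = 1.28e-10), and Timp3, a matrix-bound protease inhibitor, from 141, 149 and 155 CPM to 114, 114 and 127 CPM (-0.33 ± 0.05). Both had groups that did not overlap.

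A list of glycosyltransferases of proteoglycans and O-glycans also held other enzymes that modify these chains. Of its 46 tested genes 4 fell, a share of 8.70% beside 4.05% of all genes called lower. The median was -0.0384 (-0.0218 without Adar-null replicate 1). The count was 2 without Adar-null replicate 2 or with DESeq2. After Gxylt2 came Sulf2, which removes 6-O-sulphate from heparan sulphate at the cell surface, at 55.2, 47.5 and 60 CPM in control and 40.4, 41 and 37.6 CPM in Adar-null libraries (-0.44 ± 0.08). Among 12 proteoglycan core genes Sdc4, syndecan-4, fell from 69.2, 78.8 and 69.5 CPM to 54, 56.6 and 58.5 CPM (-0.37 ± 0.07). St3gal1, a sialyltransferase that caps O-glycans, fell by 0.21 ± 0.05, and St6gal1, which adds sialic acid to N-glycans, had a log2 fold change of 0.21 ± 0.05, a call lost without control replicate 2 (adjusted p = 0.0678). These were the 2 calls among 24 sialyltransferase and glycolipid genes (8.33%, beside 6.51% of all genes called).

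Among 35 tested guidance cues and their receptors 3 rose and 3 fell (17.1%, beside 6.51% of all genes called). The median of 0.0169 turned its sign with the setting, from -0.0608 without a filter on low counts to 0.0581 without control replicate 2, and the list held 1 to 3 rises and 3 or 4 falls over the alternatives. Sema6d, a transmembrane semaphorin, fell from 10.7, 13 and 13.9 CPM to 7.37, 8.28 and 6.95 CPM (-0.72 ± 0.18). Nrp2, a co-receptor of class 3 semaphorins and VEGF, fell from 430.1, 469 and 456 CPM to 365, 383 and 389.7 CPM (-0.25 ± 0.04), and Sema3b, a secreted semaphorin, by 0.31 ± 0.07. Ephb6, an ephrin receptor without kinase activity, rose from 9.66, 10.1 and 7.95 CPM to 15.4, 14.4 and 14.1 CPM. Epha3, an ephrin-A receptor, had a log2 fold change of 0.23 ± 0.05, a call lost without control replicate 2 (adjusted p = 0.0506), and Plxna1, a semaphorin receptor, one of 0.11 ± 0.04, lost in 8 alternatives.

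Genes of glycolysis and hypoxia were lower in Adar-null cells: 29 of 48 tested genes fell and none rose (60.4%, beside 4.05% of all genes called lower). Their median log2 fold change was -0.272, and 46 of the 48 lay below 0. The list covers enzymes that turn glucose into lactate and genes that the hypoxia-inducible factor HIF-1 is known to drive by binding a short core motif near their start. To show what such a start looks like, the 250 bases before the RefSeq start (GRCm38.p6, minus strand in each case, written 5′ to 3′) are given for 3 called genes with large falls, at chr6:124769674-124769923 for Eno2, chr14:45318573-45318822 for Ero1l and chr7:138909507-138909756 for Bnip3. Capitals mark ACGTG or GCGTG on either strand, that is also CACGT or CACGC, and overlapping matches were counted.
Eno2: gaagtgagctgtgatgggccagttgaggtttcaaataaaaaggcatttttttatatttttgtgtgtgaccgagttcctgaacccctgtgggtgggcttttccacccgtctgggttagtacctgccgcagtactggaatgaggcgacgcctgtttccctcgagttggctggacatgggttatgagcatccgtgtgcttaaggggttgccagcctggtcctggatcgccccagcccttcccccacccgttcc
Ero1l: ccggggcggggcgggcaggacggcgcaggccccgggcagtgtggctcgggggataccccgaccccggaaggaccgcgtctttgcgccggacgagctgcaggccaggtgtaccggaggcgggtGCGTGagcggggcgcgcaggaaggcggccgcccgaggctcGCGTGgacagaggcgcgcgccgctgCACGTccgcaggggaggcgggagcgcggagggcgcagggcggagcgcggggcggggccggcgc
Bnip3: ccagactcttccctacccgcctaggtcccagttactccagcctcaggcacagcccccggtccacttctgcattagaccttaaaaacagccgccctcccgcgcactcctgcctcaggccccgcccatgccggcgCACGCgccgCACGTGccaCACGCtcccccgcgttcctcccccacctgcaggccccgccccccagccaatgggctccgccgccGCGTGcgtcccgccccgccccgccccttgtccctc

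The window of Eno2 held no match, that of Ero1l 3 and that of Bnip3 5. Such a match is common: it was present in 38.6% of all 32851 RefSeq promoters of this length and in 56.7% of the 11827 promoters of 9243 tested genes that could be matched. Promoters of the called glycolysis and hypoxia genes held it in 73.2% (30 of 41, for 27 of the 29 genes), those of the tested members of the list in 72.1%. The share was 57.4% over all genes called lower and 57.8% over all called higher.

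Eno2, the neuronal enolase, stood at 7.2, 7.26 and 7.04 CPM in control and 3.43, 3.45 and 3.21 CPM in Adar-null libraries (-1.08 ± 0.23, edgeR adjusted p = 3.27e-04). Bnip3, a mitophagy receptor, stood at 96.8, 113 and 110.3 CPM against 63.6, 74.4 and 84.9 CPM, and Ero1l, an oxidase that forms disulphides in the endoplasmic reticulum, at 476, 639 and 559 CPM against 329, 389 and 399 CPM. In all 3 the populations did not overlap, and Ero1l lost its call when the 6 vehicle libraries were fitted alone (adjusted p = 0.13). Ankrd37, a small ankyrin-repeat gene, had a fitted value of -0.90 ± 0.30 and lost its call in 11 of 16 alternatives. Higd1a, a mitochondrial respiratory-chain factor (-0.48 ± 0.13), lost it in 4.

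Hif1a itself, the oxygen-regulated subunit of HIF-1, fell from 365, 386 and 347 CPM to 298, 305 and 297 CPM (-0.29 ± 0.04). Egln1, the prolyl hydroxylase that marks HIF-1 alpha for destruction, fell from 167, 178 and 186 CPM to 122, 146 and 135 CPM (-0.39 ± 0.05). Slc16a3, the lactate exporter, went from 166, 206 and 201 CPM to 135, 148 and 141 CPM. Ugp2, which makes UDP-glucose for glycogen, fell by 0.38 ± 0.04, and the angiogenic factor Vegfa by 0.23 ± 0.05. Each of these 5 kept its call in all 16 alternatives. Among the late enzymes Pkm2, pyruvate kinase, was at 1632, 1745 and 1648 CPM in control and 1448, 1542 and 1506 CPM in Adar-null libraries (-0.16 ± 0.03), and lost its call without control replicate 2 (adjusted p = 0.0545). Ldha, lactate dehydrogenase A (-0.16 ± 0.04), lost its call without that library (0.159) or without Adar-null replicate 1 (0.109), and Aldoa, an aldolase (-0.13 ± 0.04), in 5 alternatives.

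**Figure D3:**
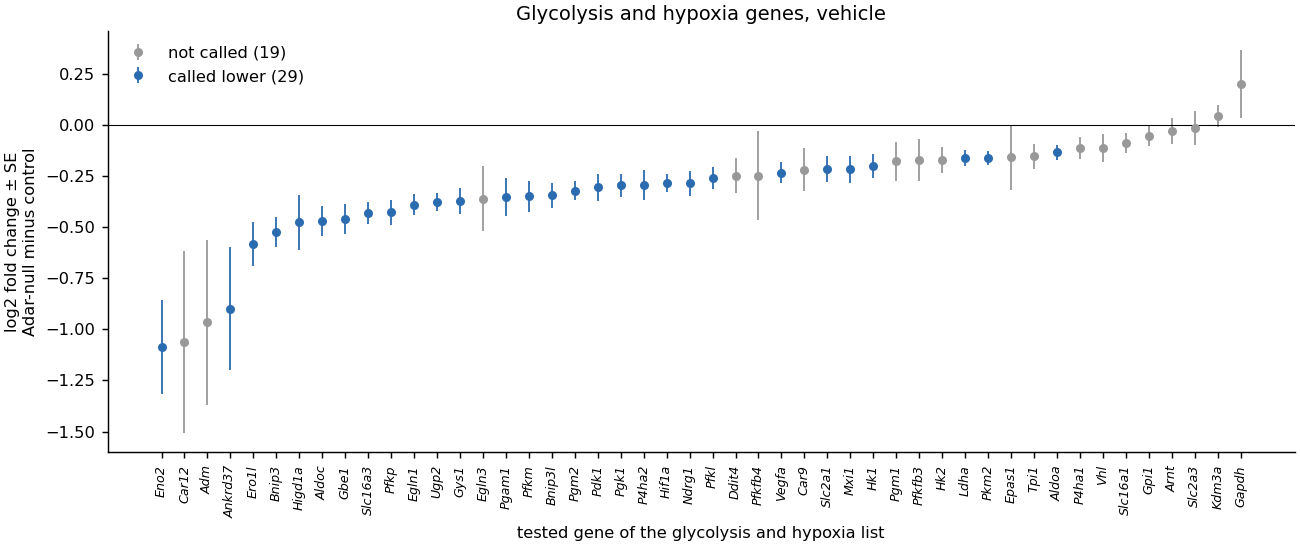
Log2 fold change (Adar-null minus control, vehicle) with its standard error for the 48 tested glycolysis and hypoxia genes, sorted by value, with the 29 called lower in blue and the 19 not called in grey. All but 2 of the points lie below 0, and called falls run from Eno2 near -1.08 to Aldoa near -0.13.

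The libraries of each population were not equal in this list. Its median deviation from the mean of the 6 libraries, on the scale log2(CPM + 0.5), was 0.054, 0.183 and 0.142 in the control libraries of replicates 1, 2 and 3, and -0.195, -0.0483 and -0.111 in the Adar-null libraries. Control replicate 2 was the highest control library for 30 of the 48 genes. Without it 19 genes were called lower and the median was -0.224, and the count over all alternatives ran from 19 to 31. Nuclear lncRNAs differed in the other direction: 13 of 14 tested lay above 0 with a median of 0.257, none was called, and their median deviation was -0.106, -0.182 and -0.0328 in control and 0.224, 0.0148 and 0.123 in Adar-null libraries. The part of this shift in the result for glycolysis genes was not tested.

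Of 34 tested genes of sterol synthesis and other targets of the SREBP factors 9 fell and none rose (26.5%, beside 4.05% of all genes, median -0.163), and 30 lay below 0. Scd2, a stearoyl-CoA desaturase, fell from 2363, 2509 and 2374 CPM to 1946, 2081 and 2047 CPM (-0.25 ± 0.03, edgeR adjusted p = 9.62e-09), and its neighbour Scd1, alike in sequence, by 0.24 ± 0.05. Insig1, which holds the SREBP complex in the endoplasmic reticulum, fell from 92.8, 99.1 and 98.8 CPM to 75.7, 83.2 and 82.4 CPM, and Sqle, squalene epoxidase, by 0.25 ± 0.06. These 4 kept their call in all 16 alternatives, while the count for the list was 5 with DESeq2, without Adar-null replicate 1 and without control replicate 2.

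Of 40 genes of fatty acid oxidation and lipid handling 6 fell (15%, beside 4.05% of all genes). The median was -0.0818, with -0.0536 without Adar-null replicate 3 and -0.0508 without control replicate 2. Mgll, the lipase that releases glycerol and fatty acid from monoacylglycerol, stood at 21.8, 19.5 and 18.6 CPM in control and 8.05, 7.46 and 8.38 CPM in Adar-null libraries (-1.33 ± 0.16, edgeR adjusted p = 9.78e-12). Ppargc1a, the coactivator PGC-1 alpha of mitochondrial biogenesis, stood at 90, 99.3 and 86.3 CPM against 61.2, 57.3 and 58.5 CPM (-0.64 ± 0.07). Cpt1c, a carnitine palmitoyltransferase family member, stood at 16.3, 16.7 and 17.7 CPM against 10.8, 8.84 and 9.98 CPM. The populations were well separated in all 3, and the list count was 3 with DESeq2. Pltp, a phospholipid transfer protein counted here in the p53 target list, fell from 6.68, 7.26 and 4.15 CPM to 2.06, 1.79 and 3.39 CPM (-1.36 ± 0.28).

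Of 32 immediate early genes 6 fell and none rose (18.8%, beside 4.05% of all genes called lower). The median was -0.0924, with -0.208 without Adar-null replicate 1 and -0.169 without control replicate 2. Jun, a subunit of AP-1, fell from 56.8, 65.3 and 67.5 CPM to 49.9, 47.5 and 45.6 CPM (-0.41 ± 0.07), Jund by 0.32 ± 0.05 and Fosl2, another AP-1 subunit, from 18.6, 21.9 and 19.9 CPM to 10.6, 13.8 and 13.9 CPM (-0.65 ± 0.13, edgeR adjusted p = 2.48e-04). Ier3, an early-response gene of cell survival, fell by 0.38 ± 0.09. Of 27 p53 targets 6 fell (22.2%), with a median of -0.0625 that reached -0.123 without Adar-null replicate 2: Perp, a desmosomal p53 target, went from 5.97, 4.95 and 6.86 CPM to 3.08, 2.07 and 1.43 CPM, and Ccng1 (-0.36 ± 0.05) and the cell-cycle inhibitor Cdkn1a (-0.34 ± 0.05) moved the same way. In the YAP and TEAD list 2 of 23 fell (8.7%), Wwtr1, the coactivator TAZ, by 0.31 ± 0.06 and Tead1 by 0.16 ± 0.05. The call of Tead1 was lost in 11 alternatives.

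Of 22 tested Wnt genes 2 were called (9.09%) and of 29 of TGF-beta and BMP signalling 2 (6.9%), beside 6.51% of all genes. Dkk3, a secreted protein of the Dickkopf family, stood at 37.1, 38.8 and 38.5 CPM in control and 19.2, 20.2 and 21.6 CPM in Adar-null libraries (-0.91 ± 0.10, edgeR adjusted p = 1.23e-11). The other Wnt call was Nkd2, an intracellular Wnt antagonist, at 0.527, 0.495 and 0.542 CPM in control and 3.08, 1.24 and 1.43 CPM in Adar-null libraries. Its fitted value of 1.81 ± 0.62 lost its call in 4 of the 14 alternatives that gave a value, without Adar-null replicate 1 (adjusted p = 0.307) and without any 1 of the 3 control libraries. Smad5, a BMP effector, rose from 369, 366 and 344 CPM to 405, 405 and 423 CPM (0.19 ± 0.04), while the activin receptor Acvr2a (-0.26 ± 0.08) lost its call in 5 alternatives.

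Erbb3, a receptor partner of ERBB2 (0.23 ± 0.05), lost its call without control replicate 2 (adjusted p = 0.0527). Lphn1, an adhesion G-protein-coupled receptor, rose from 102, 94.3 and 90.5 CPM to 117, 109 and 112 CPM (0.24 ± 0.06). The imprinted genes Igf2r, the mannose-6-phosphate receptor (-0.29 ± 0.05), and Ppp1r9a, neurabin (0.25 ± 0.05), moved in opposite directions and kept their calls in all 16 alternatives. Myo6, the myosin that walks to the minus end of actin, fell from 109.8, 113 and 95.7 CPM to 81.2, 84.8 and 86.8 CPM (-0.34 ± 0.06). Its list of 41 actin genes had 5 falls and 2 rises (17.1%, beside 6.51% of all genes called). The list had 2 falls without Adar-null replicate 1, without control replicate 2 or with DESeq2.

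Of 21 class I presentation genes 5 fell and none rose (23.8%, beside 4.05% of all genes called lower), 17 lay below 0 and the median was -0.239. That median was -0.0721 without control replicate 1, -0.141 without Adar-null replicate 2 and -0.11 without a filter on low counts. Relative to the mean of the 6 libraries the list had medians of 0.158, -0.00432 and 0.0156 in the control libraries and of -0.0741, -0.0724 and -0.0724 in the Adar-null libraries, so that control replicate 1 stood apart from the other control libraries. The number of falls was 2 without control replicate 2 and 3 without Adar-null replicate 3 or with DESeq2. The heavy-chain gene H2-K1 stood at 16.2, 19.3 and 15.5 CPM in control and 4.11, 5.11 and 7.67 CPM in Adar-null libraries, and B2m, the light chain, at 84.3, 87.7 and 76.2 CPM against 70.1, 70.5 and 66.3 CPM. Both had groups that did not overlap, though class I heavy-chain genes are near-identical and how reads were divided among them is not given in the sources used here. Of 48 interferon-stimulated genes 3 were called (6.25%, near the 6.51% of all genes). Trim25, a ubiquitin ligase of RIG-I signalling, fell from 9.14, 8.25 and 8.31 CPM to 3.94, 5.94 and 3.57 CPM.

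Among 26 genes of RNA editing and double-stranded RNA binding 4 were called (15.4%, beside 6.51% of all genes). Adar was the 1 fall, and 3 rose by small amounts, none of them called without Adar-null replicate 1 or control replicate 2: Dhx9, a helicase that unwinds such RNA (0.18 ± 0.05), and Sfpq (0.17 ± 0.04) and Son (0.17 ± 0.04), nuclear RNA-binding proteins. Dhx9 lost its call without Adar-null replicate 3 (adjusted p = 0.119) and in 2 further alternatives, and Sfpq in 2. Of 21 known substrates of A-to-I editing 1 was called, Cds2, a CDP-diacylglycerol synthase, which fell from 125, 133 and 128 CPM to 103, 107 and 113 CPM (-0.26 ± 0.05). That is 4.76% of the list, beside 6.51% of all genes, and no editing level was measured in these counts.

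The lists with the most rises were those of ribosome genes. Of 57 tested cytosolic ribosomal protein genes 9 rose and none fell (15.8%, beside 2.47% of all genes called higher), 51 lay above 0 and the median was 0.188. Rpl4, a protein of the large subunit, rose from 575, 557 and 574 CPM to 656, 663 and 657 CPM (0.21 ± 0.04, edgeR adjusted p = 5.17e-05). Rpl32 was at 30.4, 29.9 and 22.4 CPM in control and 39.6, 41 and 28.9 CPM in Adar-null libraries. Its fitted value of 0.41 ± 0.11 lost its call in 4 alternatives and its groups overlapped. Ribosomal protein genes have many processed copies in the genome, so the assignment of their reads is uncertain.

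Of 45 nucleolar genes of ribosome biogenesis 9 rose and none fell (20%, beside 2.47% of all genes called higher, median 0.145). Ncl, nucleolin, rose from 482, 469 and 487 CPM to 569, 567 and 553 CPM (0.23 ± 0.04, edgeR adjusted p = 5.52e-06), with little spread in either population. Npm1, nucleophosmin, was at 185, 187 and 186 CPM against 216, 200 and 218 CPM (0.18 ± 0.05), a call lost without Adar-null replicate 1 (adjusted p = 0.0745) or 3 (0.0534). The number of ribosomal protein calls ran from 4, without Adar-null replicate 2 or control replicate 2, to 15, without Adar-null replicate 3, and was 5 with DESeq2. That of nucleolar calls was 3 without Adar-null replicate 2 or control replicate 2 and 4 with DESeq2. Control replicate 2 had the lowest list median of the 6 libraries in both lists. Histones and small RNAs without poly(A) also held rises in 4 of 25 tested genes (16%). Hist1h1e, a linker histone, went from 593, 595 and 633 CPM to 711, 778 and 667 CPM (0.25 ± 0.04). Terc, the telomerase RNA (0.29 ± 0.07), lost its call in 3 alternatives. The count for this list was 1 without control replicate 2 or with DESeq2, 2 without Adar-null replicate 1 and 9 without Adar-null replicate 3. The part of these differences in the rise of ribosome genes was not tested.

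Among 42 lists 41 had a tested member. Calls were only falls in 16 lists, only rises in 8 and in both directions in 11, and 6 lists held no call. Those without a call included 21 circadian clock genes (median -0.0875, and -0.0488 without Adar-null replicate 3), 25 tubulins and intermediate filaments (-0.0014, with either sign over the alternatives) and 14 nuclear lncRNAs. Of 62 Polycomb, trithorax and chromatin remodelling genes 3 rose (4.84%, beside 2.47% of all genes called higher). Ring1, a ubiquitin ligase of Polycomb complex 1, went from 20.2, 17.6 and 17.9 CPM to 24.2, 26.4 and 26.4 CPM (0.47 ± 0.12). In the list of cadherins and protocadherins the single call among 19 tested genes, Cdh13 (0.54 ± 0.16), was lost in 6 alternatives. That list did not hold the whole family. Called outside it were Pcdhgb1 and Pcdhb14, described above, and Pcdh12 (-1.66 ± 0.58, edgeR adjusted p = 0.0375). Of 30 ion channel genes 3 fell and 1 rose (13.3%, beside 6.51% of all genes called). Kcnh2, a potassium channel, fell by 2.35 ± 0.76 at low counts and lost its call without Adar-null replicate 2 (adjusted p = 0.095) or control replicate 1 (0.0799).

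The differences were not spread evenly over the genome. Of 20 chromosomes, chromosome 2 had the lowest median log2 fold change, -0.0599 over 919 tested genes. There 88 genes were called lower (9.58%, beside 4.05% of all genes) and 7 higher (0.762%, beside 2.47%). Chromosome 6 had the highest, 0.0533 over 586 genes, with 46 called higher (7.85%) and 11 lower (1.88%). Both values lay beyond the medians of the other chromosomes, from -0.0444 for chromosome 12 to 0.0452 for chromosome 13. These medians were recomputed with library size alone, with genes of at least 10 CPM and without each vehicle library. That of chromosome 2 stayed between -0.0652 and -0.0599 and that of chromosome 6 between 0.0452 and 0.0642. The other scalings, which moved the median of all genes by up to 0.00668, were not tried on chromosome medians. An exact two-sided permutation test over 3 against 3 libraries cannot go below 0.1, which 12 of 20 chromosomes reached (0.167 after adjustment over 20).

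Windows of about 50 neighbouring tested genes placed the difference on chromosome 2. The first 5 windows, with gene starts up to position 37516626, had a median of -0.000755 over 256 genes, with 8 called lower and 6 higher. In the 13 windows from position 37569868 to 181864360 the median was -0.0896 over 663 genes. Of these genes 73.8% lay below 0, beside 50.5% of all genes. Called lower were 80 (12.1%, beside 4.05% of all genes), against 1 higher. Every one of these 13 windows had a median below 0, from -0.146 to -0.0322. The boundary between the stretches was set after the values were seen. Relative to the mean of the 6 libraries, the genes of the 13 windows had medians of 0.051, 0.0544 and 0.0486 in the control libraries. In the Adar-null libraries they were -0.0466, -0.0448 and -0.0397. Libraries of a population were thus alike, but a stretch set from these same values tends to separate the populations. Of the 20 whole chromosomes 12 separated them as well.

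The 80 falls were mostly small, with 49 under 1.25-fold and a median of -0.28. Among the genes described above they held Jph2, Pltp, Sema6d, Tgm2, Itga6, Itgav, Sulf2, Sdc4, B2m, Cds2 and Acvr2a. Some falls of the integrin, matrix, class I and editing-substrate lists thus lie in this stretch. The part of the stretch in those lists was not tested. Over the genome 12 of 229 windows had a median of -0.09 or lower and 9 of these were on chromosome 2. The first 2 windows of chromosome 3, which begin with Zfhx4 at position 5218218, had a median of -0.111 over 104 genes. They held 9 falls (8.65%, beside 6.73% on the whole of chromosome 3 and 4.05% of all genes) and no rise. On chromosome 6 the shift ran along the chromosome, with 11 of 12 windows above 0 and up to 0.0915. Gxylt2, Mgll and Eno2, which fell, lie on chromosome 6 against this direction.

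**Figure D4:**
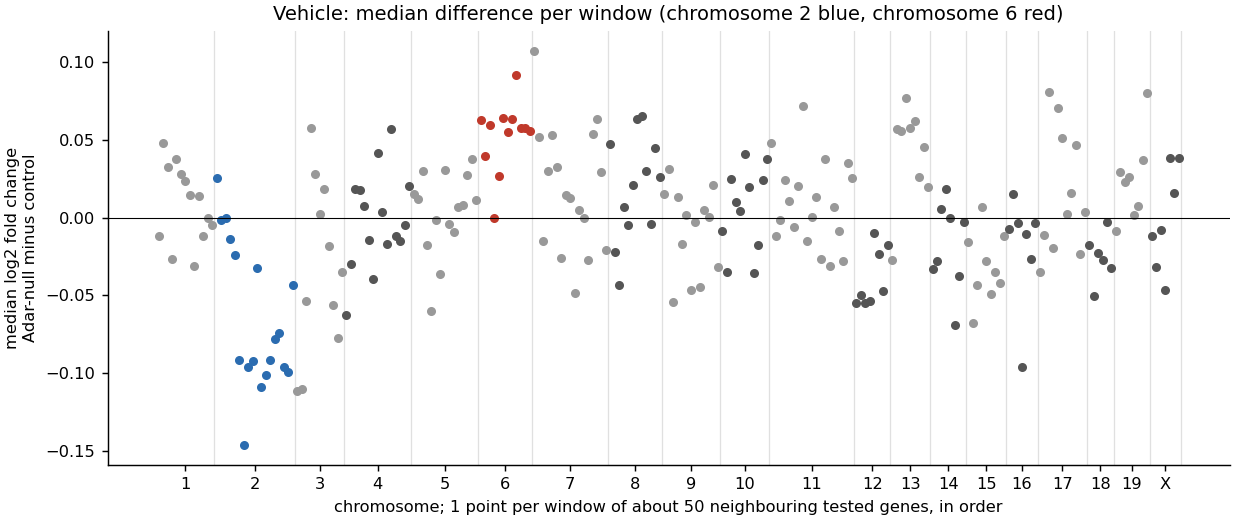
Median log2 fold change (Adar-null minus control, vehicle) of each of 229 windows of about 50 neighbouring tested genes, in order along the chromosomes, with chromosome 2 in blue and chromosome 6 in red. After its first 5 windows chromosome 2 stays below 0, down to -0.146, and chromosome 6 lies above 0 in 11 of 12 windows.

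The IFNb libraries come from the same 2 populations and show whether the differences were still there in another state of the cells. They are other libraries than those compared above, but they entered the same fit. The vehicle calls share its gene filter, scaling and estimate of the spread, and are thus not fully independent of them. Adar-null and control cells differed in 72.6% of tested genes under IFNb, 36.4% higher and 36.2% lower, so a shared direction is frequent for any gene. Of the 468 falls under vehicle 306 were also called lower under IFNb (65.4%), 99 were called higher and 63 were not called. Of the 285 rises 120 were called higher (42.1%), 110 lower and 55 not called, a share near the 36.4% of all genes.

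Of the 41 falls of 2-fold or more 31 were called lower under IFNb (75.6%), and so were 11 of the 12 largest falls. Btn2a2 stood at 6.51 ± 2.21 CPM (standard deviation, n = 3) in control and 0.0501 ± 0.0868 CPM in Adar-null cells under IFNb, Zfhx4 at 4.47 ± 0.667 CPM against 0.0527 ± 0.0913 CPM, and Ubqln2 at 5.21 ± 0.528 CPM against 0.179 ± 0.190 CPM. These were absent or nearly absent from Adar-null cells in both states. Oca2 (log2 fold change -6.91 ± 1.47), Loxl2 (-6.01 ± 1.49), Mgll (-4.07 ± 0.36) and Dkk3 (-3.84 ± 0.20) were lower under IFNb too, as was H2-K1 (-0.44 ± 0.05). Of the 29 glycolysis and hypoxia falls 25 were called lower again, as were all 9 sterol falls and all 7 integrin falls. Other lists repeated less: 1 of 6 immediate early falls, 1 of 6 p53 target falls and 0 of 2 YAP and TEAD falls. Among the rises 7 of 9 nucleolar, 4 of 9 ribosomal protein and 1 of 4 histone and small RNA genes were called higher again.

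Of the 11 rises of 2-fold or more 2 were called higher under IFNb, 1 lower and 8 not at all. Pcdhb14 (1.01 ± 0.26) and Cngb1 (1.40 ± 0.15) were higher again, as was Ncl (0.18 ± 0.04). Jun (1.20 ± 0.05), Fosl2 (0.85 ± 0.08), Vegfa (0.86 ± 0.06) and Timp3 (0.93 ± 0.06), which fell under vehicle, were higher in Adar-null cells under IFNb. The median log2 fold change under IFNb was -0.106 over the 13 windows of chromosome 2, of which 11 lay below 0. It was 0.084 over chromosome 6, beside 0.0156 over all tested genes. Chromosomes 2 and 6 were not the extremes under IFNb. Chromosomes 7 (0.105) and 19 (0.0866) lay above chromosome 6, and X (-0.133) lay below the whole of chromosome 2 (-0.0825). Of the 80 falls in the chromosome 2 stretch 50 were called lower under IFNb and 15 higher.

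**Figure D5:**
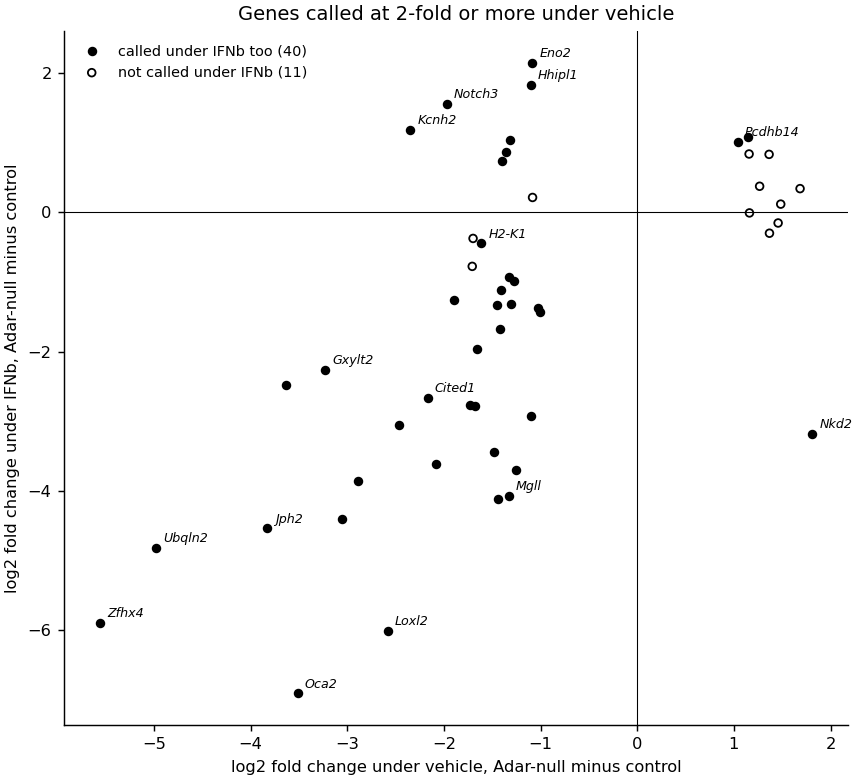
Log2 fold change (Adar-null minus control) under IFNb against that under vehicle for the genes called at 2-fold or more under vehicle, filled where also called under IFNb (40) and open where not (11); Btn2a2, with 0 counts in a group, is not drawn. Most falls lie in the lower left, and Eno2, Hhipl1, Notch3 and Kcnh2 in the upper left.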

How the data were processed

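RNA was measured in 12 libraries of B16 cells, of which the 6 vehicle libraries are described here. Per the labels' protocols, ribosomal RNA was removed from total RNA before stranded library preparation and paired-end sequencing. The submitters' processing notes list bcl2fastq 2.19.1, HTSeq 0.6.1p1, Bowtie2 2.2.4, Trimmomatic 0.33, DESeq2 and the genome build mm10, without their order or settings. Neither the strand option nor the gene models used in counting are given, so reads of overlapping and antisense genes cannot be told apart. The values the authors deposited are raw counts per gene symbol, not normalised. The table has 23336 symbols, of which 25 read as dates and are not named.

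Low genes were removed with filterByExpr (by group), and the counts were scaled by TMM and tested with the edgeR 4.0.16 quasi-likelihood test (R 4.3.3, robust) over all 12 libraries in 1 fit with 1 term per group, with Benjamini-Hochberg adjustment over 11561 genes and a threshold of 0.05. Values after ± are Wald standard errors for log2 fold changes. Libraries were taken as separate samples of their group. Levels are CPM on the scaled library sizes, and 3 counts over a group correspond to 0.174 CPM in control and 0.161 CPM in Adar-null vehicle libraries. Counting intervals are exact at 95%. Gene positions and promoters come from RefSeq on GRCm38.p6, and 11473 tested genes had a position.

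The genes named are Adar, the 12 largest rises and 12 largest falls among called genes with at least 2 CPM in the higher group and groups that do not overlap, the 10 called genes of highest CPM, the 3 called members of each list with the largest change, the melanocyte markers and the genes seen in 1 population. This rule gave 119 tested genes, and 21 more were named after their values were seen, as were Son and the members of chromosome stretches. The comparison, the rule and the 42 gene lists were chosen with earlier results of these data known. No list was tested as a set. Alternatives were other scalings, filters, tools (DESeq2 1.42.0, limma-voom with limma 3.58.1), a replicate block and leaving out each library. The test procedure was checked on simulated counts of 11561 genes, with 50 genes changed at each size. It recovered 50% of changes of 1.25-fold, 72% of 1.5-fold, 92% of 2-fold and 96% of 4-fold, with 9 false calls. Unlike the data, the simulated IFNb groups had the means of the control vehicle libraries.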

Additional observations from a re-analysis of the deposited data

Results flagged for a closer look

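Of the 52 genes called at 2-fold or more under vehicle, 23 had a called interaction, the difference between populations under IFNb minus that under vehicle, and in 8 of them the difference was called in opposite directions in the 2 states (edgeR, Benjamini-Hochberg adjustment). The share of called interactions over all tested genes was not computed. Over all 753 vehicle calls 209 were called in the opposite direction under IFNb, so such reversals were not particular to the large differences. The 8 genes are given as values. Eno2 was lower in Adar-null cells under vehicle (7.17 against 3.36 CPM in control and Adar-null means) and higher under IFNb (5.93 ± 0.677 against 26.8 ± 2.86 CPM, SD, n = 3), an interaction of 3.24 on the log2 scale. Notch3 went from 3.40 against 0.816 CPM under vehicle to 2.97 against 8.82 CPM under IFNb (interaction 3.53). Heg1, a membrane protein gene known from endothelium, went from 6.61 against 2.64 CPM to 10.8 against 22.1 CPM (2.35), and Hhipl1, a hedgehog-interacting family gene, from 5.66 against 2.68 CPM to 5.34 against 19.1 CPM (2.94). Pltp had an interaction of 2.23 and H2-Q4, a class I gene with near-identical relatives, one of 2.13. Kcnh2 had an interaction of 3.54 at 0.279 to 2.30 CPM. In Nkd2 the order was the other way round, higher in Adar-null cells under vehicle (0.521 against 1.92 CPM) and lower under IFNb (2.17 against 0.200 CPM), an interaction of -4.99. Under vehicle alone the calls of Kcnh2 and Nkd2 were lost in 2 and 4 of the 14 alternatives that gave them a value, and those of H2-Q4 and Hhipl1 in 1 each.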

How the results depend on the processing

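The 753 calls became 761 with DESeq2 size factors, 762 with upper-quartile scaling, 672 with library size alone, 758 without Rn45s, 724 without a filter on low counts, 731 with a minimum of 1 CPM, 754 with limma-voom and 740 when the 6 vehicle libraries were fitted alone. The DESeq2 Wald test called 324 genes (109 higher, 215 lower, 31 at 2-fold or more, 199 also called in the same direction under IFNb). A test against a 1.5-fold change called 17, of which 0 were higher and 17 lower, all at 2-fold or more, and 16 were shared with IFNb. Leaving out 1 library gave 308 to 723 calls, 88 to 267 higher, 220 to 456 lower and 194 to 391 shared with IFNb, with the lowest values without control replicate 2. Genes seen in only 1 population numbered 63 with at least 5 counts and 1 with at least 20. With the replicate block 711 genes were called, 704 of them among the 753. Deviations of same-numbered libraries of the populations correlated across genes at 0.0383, 0.0616 and -0.00659, and those of differently numbered ones at -0.0706 to 0.0311. The deviations hold counting noise and sum to 0 within a population, so whether replicate numbers pair the samples cannot be settled from them. The share of lower calls, 62.2%, lay between 56.8% with upper-quartile scaling and 71.4% without control replicate 2 where genes were tested against no change, and no scaling moved the median of all genes by more than 0.00668. Of 132 called genes named here 71 kept the call in 16 alternatives, 2 (Jph2 and Notch3) in the 15 that gave them a value, and 59 lost it in at least 1, and none changed direction. The cause of these losses was not tested. Low-count genes could be called only at large differences: the median absolute log2 fold change of called genes was 1.76 under 2 CPM and 0.172 at 200 CPM or more.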
